A study of Mus musculus with 12 samples.

Results

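The genes described here are ATF4 and genes of the pathways it is known to drive, 37 of the 55487 gene identifiers in the count table. They were chosen by name and fall into 8 regulators of the stress response (Atf4, Atf5, Atf3, Ddit3, Trib3, Nupr1, Cebpb and Cebpg), 3 effectors (Chac1, Sesn2 and Eif4ebp1), 8 enzymes of serine synthesis and one-carbon metabolism (Phgdh, Psat1, Psph, Shmt1, Shmt2, Mthfd2, Mthfd1l and Aldh1l2), 6 enzymes of other amino acid pathways (Asns, Aldh18a1, Pycr1, Got1, Gpt2 and Pck2) and 12 cytosolic tRNA synthetases. All 37 symbols matched a row, and Ddit3 matched a second identifier with 0 counts in every library. RNA was sequenced from CD8+ T cells, the killer T cells, prepared from spleen cells of C57BL/6 mice. The 4 groups of 3 libraries were IL-12 80%TCM, IL-12, IL-2 80%TCM and IL-2. IL-2 drives T cell growth, and IL-12 acts through STAT4 and raises interferon gamma. Every group had a cytokine, so none holds cells without one, and the labels give no age, time, genetic change or spelled-out meaning of TCM; the series title mentions tumor-like conditions. Nothing states that replicate libraries are from different animals or cultures, so p-values measure only the spread among these libraries.

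ATF4 is a transcription factor of the integrated stress response. Its mRNA is translated more when kinases such as GCN2 and PERK phosphorylate the initiation factor eIF2alpha, in amino acid shortage or stress of the endoplasmic reticulum, so that ATF4 protein can change with no change of its mRNA. With C/EBP partners it raises genes of amino acid uptake and synthesis, serine and one-carbon enzymes and most cytosolic tRNA synthetases, the enzymes that load tRNAs with their amino acids. Dividing T cells use serine as a source of one-carbon units for making nucleotides.

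Composite C/EBP-ATF elements share a core that was searched here as TGATGNAA on both strands (TTNCATCA on the other), with no other motif searched, in RefSeq promoter windows on GRCm38.p6 that run from 250 bases before to 50 bases after each start. A window was at hand for 30 of the 37 members, and 13 of these 30 (43.3%) held a match, against 4.51% of the 27025 genes in the promoter table. By role, among genes with a window, a match stood in 3 of 8 regulators, 1 of 2 effectors, 0 of 7 serine and one-carbon genes, 4 of 6 other amino acid genes and 5 of 7 synthetases. The members are widely described as ATF4 targets, so the share describes the choice of genes and was not tested, and a match of letters is not a bound site. The 250 bases before the start are shown for 6 members with a match whose mRNA was called different in at least 1 comparison below. They are written 5′ to 3′ on the strand of the gene, with the match in capitals, and 0 to 21 of the bases of each lie in annotated exons. They are Atf3 at chr1:191183334-191183583 (minus strand), Chac1 at chr2:119350992-119351241 (plus strand), Pycr1 at chr11:120643749-120643998 (minus strand), Got1 at chr19:43524606-43524855 (minus strand), Pck2 at chr14:55540016-55540265 (plus strand) and Gars at chr6:55037751-55038000 (plus strand).
Atf3: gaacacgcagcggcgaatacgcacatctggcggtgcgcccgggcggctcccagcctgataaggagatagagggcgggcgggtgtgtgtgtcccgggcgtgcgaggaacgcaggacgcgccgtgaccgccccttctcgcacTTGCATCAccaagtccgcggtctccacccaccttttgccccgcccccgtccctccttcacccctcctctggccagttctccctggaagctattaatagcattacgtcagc
Chac1: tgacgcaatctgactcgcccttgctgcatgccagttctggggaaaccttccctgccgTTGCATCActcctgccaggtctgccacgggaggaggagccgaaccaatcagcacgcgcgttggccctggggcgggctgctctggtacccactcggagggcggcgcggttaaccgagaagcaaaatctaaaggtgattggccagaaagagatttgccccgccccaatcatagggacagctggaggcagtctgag
Pycr1: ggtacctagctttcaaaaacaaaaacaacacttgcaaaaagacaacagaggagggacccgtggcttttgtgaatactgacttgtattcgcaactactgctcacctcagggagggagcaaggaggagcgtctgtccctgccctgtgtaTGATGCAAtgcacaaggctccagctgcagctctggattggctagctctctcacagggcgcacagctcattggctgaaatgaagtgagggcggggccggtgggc
Got1: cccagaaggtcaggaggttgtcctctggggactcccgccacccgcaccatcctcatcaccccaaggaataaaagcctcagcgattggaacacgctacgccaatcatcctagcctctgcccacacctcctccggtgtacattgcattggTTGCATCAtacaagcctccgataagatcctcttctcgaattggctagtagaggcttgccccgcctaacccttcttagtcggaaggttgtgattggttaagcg
Pck2: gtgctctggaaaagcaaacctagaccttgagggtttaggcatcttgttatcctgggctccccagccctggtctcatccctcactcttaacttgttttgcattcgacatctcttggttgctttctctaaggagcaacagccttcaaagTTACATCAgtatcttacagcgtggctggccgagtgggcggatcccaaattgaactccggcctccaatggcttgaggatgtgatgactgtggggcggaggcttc
Gars: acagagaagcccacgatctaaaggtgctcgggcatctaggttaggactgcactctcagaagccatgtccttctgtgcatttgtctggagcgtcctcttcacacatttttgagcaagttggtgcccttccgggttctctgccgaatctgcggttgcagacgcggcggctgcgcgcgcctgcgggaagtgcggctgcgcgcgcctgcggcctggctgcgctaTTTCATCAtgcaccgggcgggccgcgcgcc
The match began 103 bases before the start in Pycr1, 103 in Pck2, 102 in Got1, 110 in Atf3, 193 in Chac1 and 30 in Gars. The called members Trib3, Aars, Iars, Tars and Yars also held a match and are not shown. As these 6 were picked from called members, a link between the match and the size of a change was not tested.

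Levels are in CPM, counts scaled to a library size of 1e+06 after TMM, a normalisation that takes most genes as unchanged. The libraries held 19500568 to 26007717 gene counts, apart from IL-12 replicates 1 and 2 with 49638920 and 42349121. All 9 markers of CD8+ T cells were present and summed to 4307 to 5164 CPM, while 4 hepatocyte markers, checked because the extraction text in the labels speaks of livers, summed to at most 0.132 CPM, with 2 or 3 of the 4 at 0 in each group. The 4 platelet markers summed to 23.2 to 29.5 CPM in IL-12 80%TCM and 57 to 67.5 CPM in IL-12 libraries, and to 41.8 to 54.2 CPM in IL-2 80%TCM and 102 to 124 CPM in IL-2 libraries, with 0 of the 4 markers at 0. The 5 B cell markers summed to 8.49 to 9.57 CPM in IL-12 80%TCM, 6.24 to 7.95 CPM in IL-12, 17 to 20.1 CPM in IL-2 80%TCM and 16.6 to 20 CPM in IL-2 libraries. The 6 myeloid markers summed to 10.1 to 11.03 CPM in IL-12 80%TCM and 6.36 to 8.10 CPM in IL-12 libraries, with no overlap, and to 10.8 to 18.1 CPM in IL-2 80%TCM and 9.38 to 12.9 CPM in IL-2 libraries. The 3 markers of CD4+ T cells summed to 3.35 to 3.44 CPM in IL-12 80%TCM and 1.43 to 1.82 CPM in IL-12 libraries. In IL-2 80%TCM and IL-2 libraries they summed to 4.21 to 6.22 and 2.82 to 3.33 CPM, with no overlap in either pair. The higher sums came from Cd4, at means of 2.45 CPM in IL-12 80%TCM, 0.584 in IL-12, 3.81 in IL-2 80%TCM and 1.21 in IL-2. In the same order, Foxp3 was lower with TCM in both pairs (0.462, 0.603, 1.15 and 1.61). Cd40lg changed little (0.485, 0.467, 0.290 and 0.272). None of these B cell, myeloid and CD4+ markers was at 0. The part of these cells in the results was not tested, and in bulk samples fewer cells of a type and less RNA per cell cannot be told apart.

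Replicate 3 of both IL-2 groups stood apart from its replicates, and this touches several members. Between 2 libraries of a group, chi-square divided by its degrees of freedom was 28.5 to 45.4 for pairs with one of these 2 libraries and 2.4 to 5.51 for all other pairs. In them, 19 hypoxia and glycolysis genes lay above the mean of replicates 1 and 2 by a median of 1.67 in IL-2 80%TCM and 1.59 in IL-2 on the log2(CPM + 0.1) scale. Over the 35 members tested the median shift was 0.21 in IL-2 80%TCM and -0.04 in IL-2, and 9 and 6 of the 35 lay over 0.5 from 0 (25.7% and 17.1%), against 18.7% and 15.7% of all tested genes. Eif4ebp1, the translation repressor 4E-BP1, lay 1.47 and 1 higher in replicate 3 of the IL-2 80%TCM and IL-2 groups. Mthfd1l, a mitochondrial enzyme of formate release, lay 1.19 and 1.08 higher, and Pycr1 1.31 and 1.16. Phgdh, the first enzyme of serine synthesis, was 0.43 and 0.50 below replicates 1 and 2 in these libraries. Counts are therefore also given with the replicate number as a block over the 6 IL-2 libraries (the blocked fit) and with these 2 libraries (the IL-2 replicates 3) left out. All 4 groups share 1 estimate of the spread per gene, so these 2 libraries also enter the test of TCM within IL-12. There 29% of all genes were called, 42% in the blocked fit, 46% with the IL-2 replicates 3 left out and 48.9% with the IL-12 groups fitted alone.

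**Figure D1:**
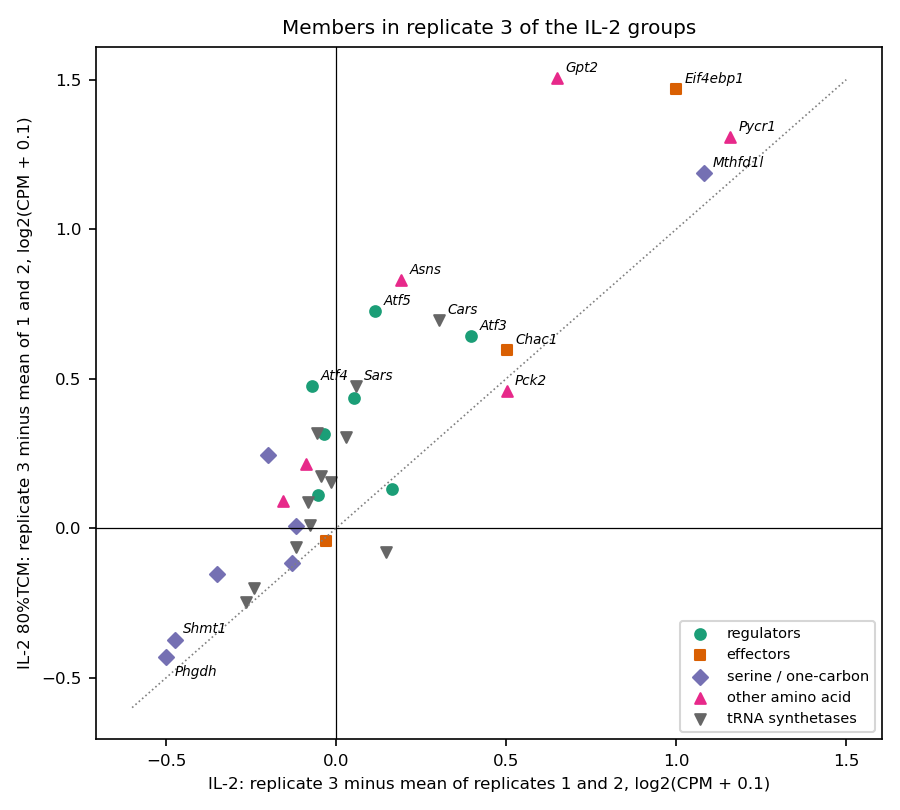
Shift of replicate 3 from the mean of replicates 1 and 2 for the 35 tested members, in IL-2 80%TCM on the vertical axis and in IL-2 on the horizontal axis, both as differences of log2(CPM + 0.1), with a dotted line where both are equal. Eif4ebp1, Pycr1, Mthfd1l and Gpt2 lie high in both groups, and Phgdh and Shmt1 lie below 0 in both.

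Of the 37 members, 35 passed the filter on low counts and were tested. Nupr1, a stress-induced chromatin protein, had 2 to 5 reads in IL-12 80%TCM, 1 to 4 in IL-12, 6 to 15 in IL-2 80%TCM and 2 to 12 in IL-2 libraries, and Aldh1l2, a mitochondrial folate enzyme, had 0 to 15 reads in any library. All adjusted p-values below come from edgeR's quasi-likelihood test with Benjamini-Hochberg adjustment over all 15897 genes tested, called at 0.05. Comparisons that have a group in common share its libraries and are not independent of each other.

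With TCM, cells in IL-12 had more mRNA of Atf4, of its partner Cebpb and of proline enzymes, and less of the serine enzymes Psat1 and Shmt2. In IL-12 80%TCM against IL-12, 8 of 35 members were higher and 4 lower, against 14.8% of all tested genes higher and 14.2% lower. The called share of the members was 34.3%, beside a background of 29%. The higher members were Atf4, Atf3, Cebpb, Chac1, Aldh18a1, Pycr1, Pck2 and Cars, and the lower ones were Psat1, Shmt2, Wars and Eprs. In the blocked fit 12 were higher and 8 lower, with 42% of all genes called, and with the IL-2 replicates 3 left out 13 and 8 of 36 members, with 46% of all genes called.

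TCM with IL-2 gave fewer calls. In IL-2 80%TCM against IL-2, Pycr1 and Got1 were higher and Trib3, Wars and Eprs lower, 5 of 35 members or 14.3%, beside a background of 14.5% (6.73% higher and 7.82% lower). The number depended on the 2 libraries that stand apart. In the blocked fit 11 members were higher and 5 lower, with 27.9% of all genes called, and with the IL-2 replicates 3 left out 4 of 36 were higher and 6 lower, with 24.7% of all genes called. With the 6 libraries of the IL-2 groups fitted alone, 0 members were called in either direction, with 3.81% of all genes called.

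IL-12 in place of IL-2 gave the most calls among the members, led by the synthetases. In IL-12 against IL-2, 14 of 35 members were higher and 6 lower (57.1% of the members), against 22.1% of all tested genes higher and 23% lower (45.1% in all). In IL-12 80%TCM against IL-2 80%TCM, 10 of 35 were higher and 4 lower (40%), against 19.5% and 19.4% of all genes (39% in all). Upper-quartile scaling, which lowers the median log2 fold change of all genes to -0.09 and -0.08 here, moves the split of all called genes to 2593 higher and 4532 lower without TCM, against 3511 and 3660 with TMM, and to 2331 and 3971 with TCM, against 3106 and 3086. It also moves the split for TCM within IL-12 to 2617 higher and 1987 lower, against 2353 and 2264. With the IL-2 replicates 3 left out, 15 of 36 members were higher and 8 lower in IL-12 against IL-2 (52.3% of all genes called, 26.3% higher and 26% lower), and 18 higher and 5 lower with TCM in both groups (48% of all genes called, 23.5% higher and 24.5% lower). The blocked fit gave 14 higher and 5 lower in IL-12 against IL-2 (44.1%) and 13 higher and 4 lower with TCM in both groups (39%).

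Whether TCM acted differently under the 2 cytokines was tested directly. For its effect in IL-12 minus that in IL-2, 0 of 35 members were called higher and 0 lower, against 1.58% of all genes. At an unadjusted p under 0.05 there were 3 higher (Trib3, Atf3 and Cebpb) and 2 lower (Shmt2 and Got1), or 14.3% of the members, against 14.8% of all genes. DESeq2 called 1 member and 3.46% of all genes. In the blocked fit 2 were higher and 2 lower (10.5% of all genes, 6.35% higher and 4.14% lower). With the IL-2 replicates 3 left out, 7 were higher and 2 lower (13.2%, 6.96% higher and 6.24% lower).

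**Figure D2:**
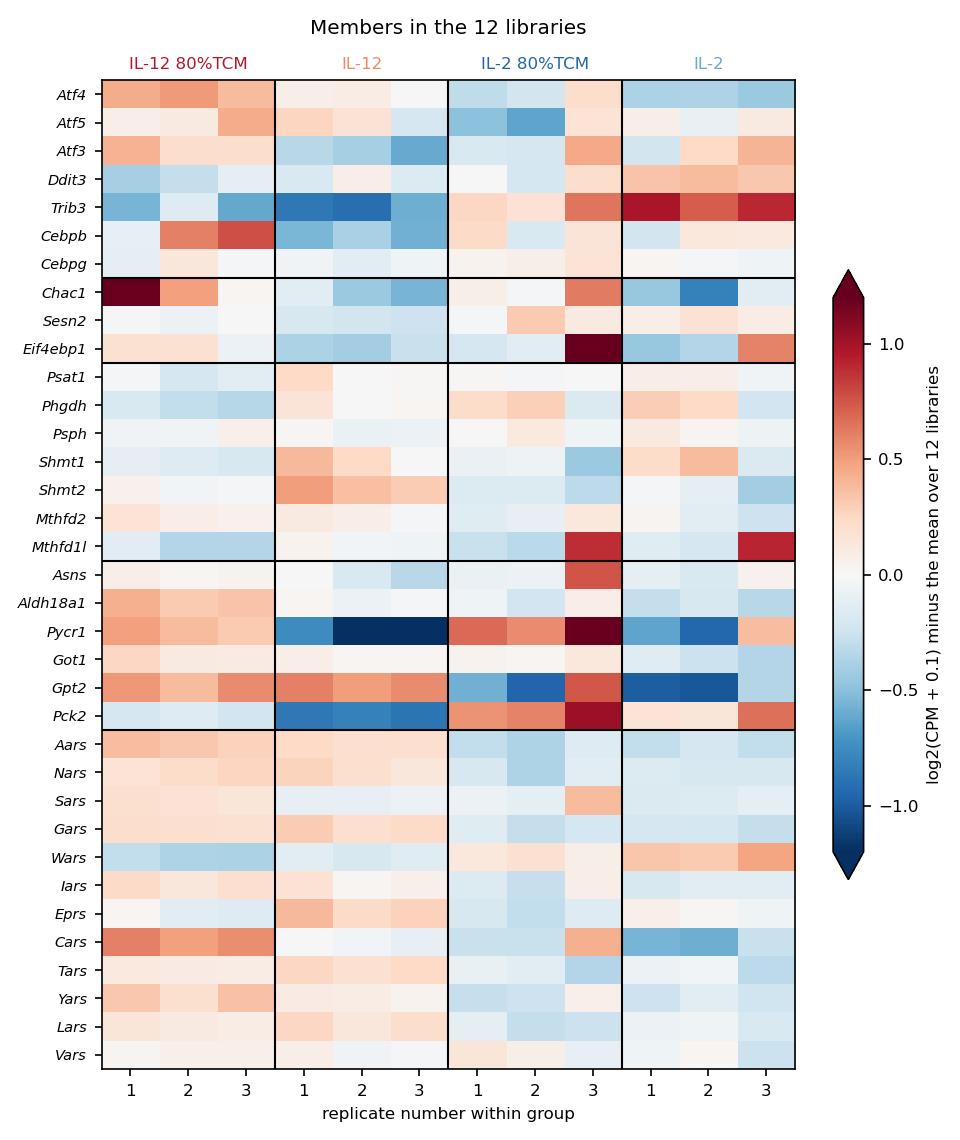
The 35 tested members in the 12 libraries as log2(CPM + 0.1) minus the member's mean over the libraries, with replicate number on the horizontal axis and members in order of role down the page. Most synthetases are red in the 6 IL-12 libraries and blue in most of the 6 IL-2 libraries, Wars and Trib3 run the other way, and replicate 3 of the IL-2 groups differs from replicates 1 and 2 for Eif4ebp1, Mthfd1l and Pycr1.

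Among the regulators, Atf4 itself was higher with TCM in IL-12 cells and higher with IL-12 in both media. Atf4 stood at 196, 205 and 187 CPM in IL-12 80%TCM, 151, 153 and 145 in IL-12, 116, 124 and 167 in IL-2 80%TCM and 111, 111 and 106 in IL-2 libraries. All IL-12 80%TCM libraries lay above all others, and replicate 3 of IL-2 80%TCM lay above the 3 IL-12 libraries while its 2 replicates lay below them. The log2 fold change was 0.39 (SE 0.10) with TCM in IL-12 (adjusted p = 0.0129). It was 0.46 (SE 0.10) for IL-12 against IL-2 (adjusted p = 0.00284) and 0.53 (SE 0.10) with TCM in both groups (adjusted p = 0.00112). With TCM in IL-2 it was 0.31 (SE 0.10) and not called (adjusted p = 0.059), and called in the blocked fit (adjusted p = 0.00416), yet at 0.11 it was smaller with the IL-2 replicates 3 left out (adjusted p = 0.131, range over the alternatives 0.000297 to 0.214). The call with TCM in IL-12 was lost without IL-12 80%TCM replicate 2 or IL-12 replicate 3, with adjusted p = 0.0537 to 0.0601 in a range of 3e-08 to 0.0601 over 23 alternatives.

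Trib3 and Ddit3, both known to be induced by ATF4 in stressed cells, were lower in IL-12 than in IL-2, while Atf4 was higher in IL-12. Trib3, a pseudokinase that restrains ATF4 and AKT signalling, stood at 4.73, 6.28 and 4.55 CPM in IL-12 80%TCM, 3.81, 3.70 and 4.63 in IL-12, 8.33, 7.89 and 11.01 in IL-2 80%TCM and 13.9, 11.6 and 13.2 in IL-2 libraries. Every IL-12 library lay below every IL-2 library with the same medium. Trib3 was lower, with a log2 fold change of -1.69 (SE 0.16) in IL-12 against IL-2 (adjusted p = 2.24e-06), the largest size among the called members of that comparison, and had a log2 fold change of -0.81 (SE 0.16) with TCM in both groups (adjusted p = 0.00146). With TCM it fell in IL-2 cells, by a log2 fold change of -0.51 (SE 0.15, adjusted p = 0.0406). In IL-12 cells the change was 0.37 (SE 0.17) and not called (adjusted p = 0.113; blocked fit 0.0359). The difference between these effects was 0.88 (SE 0.23, adjusted p = 0.074 by edgeR), and it was called in the blocked fit (adjusted p = 0.00273). The call in IL-2 was lost without replicate 1 or 2 of IL-2 80%TCM, any replicate of IL-2, or replicate 1 of IL-12 80%TCM or IL-12, with adjusted p = 0.0549 to 0.139 in a range of 0.000924 to 0.139.

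Ddit3 encodes CHOP, the factor tied to cell death after prolonged stress. It stood at 10.7, 11.6 and 13.1 CPM in IL-12 80%TCM, 12.5, 15.01 and 12.6 in IL-12, 14.2, 12.2 and 16.4 in IL-2 80%TCM and 17.9, 18.5 and 17.8 in IL-2 libraries, so the IL-2 libraries were the highest and did not overlap with those of the IL-12 or IL-2 80%TCM group. It fell in IL-12 against IL-2 with a log2 fold change of -0.43 (SE 0.12, adjusted p = 0.0085). With TCM the changes were -0.18 (SE 0.12) in IL-12 (adjusted p = 0.275) and -0.34 (SE 0.12) in IL-2 (adjusted p = 0.0692; blocked fit 0.0113). For IL-12 80%TCM against IL-2 80%TCM it was -0.28 (SE 0.12, adjusted p = 0.0872).

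Atf3, an early stress and activation factor, averaged 5.78 ± 0.492 CPM in IL-12 80%TCM, 3.46 ± 0.347 in IL-12, 4.92 ± 1.37 in IL-2 80%TCM and 5.32 ± 1.15 in IL-2 libraries (SD, n = 3 each). It rose with TCM in IL-12 cells by 0.73 (SE 0.20) on the log2 scale (adjusted p = 0.0156), a call lost without IL-12 80%TCM replicate 1 or IL-12 replicate 3 at adjusted p = 0.0529 to 0.0589 in a range of 0.000104 to 0.0589. It was lower in IL-12 than in IL-2 with a log2 fold change of -0.61 (SE 0.20, adjusted p = 0.023), which the blocked fit did not call (adjusted p = 0.191) and which was lost without replicate 2 or 3 of either group (0.0534 to 0.0858 in a range of 0.00443 to 0.191). The blocked fit also called it higher in IL-12 80%TCM against IL-2 80%TCM (adjusted p = 0.0154, against 0.389 without the block) and for the difference of the TCM effects (0.00645, against 0.17). Cebpb, a C/EBP partner of ATF4, was near the low end of the tested genes, at 1.02, 1.73 and 1.95 CPM in IL-12 80%TCM and 0.719, 0.815 and 0.705 in IL-12 libraries, with no overlap. It rose there by 1.06 (SE 0.25) on the log2 scale (adjusted p = 0.00738), and 20.7% of its exon length overlaps Tmem189 on the opposite strand, and whether the counting used strand is not stated. The summed myeloid markers given above were higher in the same libraries, mostly through Cd68 and next through Itgam. Adgre1 and Cd14 were also higher on average, while Lyz2 and Csf1r were not. Of these, Adgre1, Cd14 and Csf1r had few reads. The part of myeloid cells in the rise of Cebpb was not tested. Atf5, a relative of ATF4, and Cebpg, another C/EBP partner, were called in no comparison, except Atf5 as higher in IL-12 80%TCM against IL-2 80%TCM in the blocked fit (adjusted p = 0.0272, against 0.067).

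The effectors gave few calls. Chac1, which degrades glutathione, stood at 1.77, 0.941 and 0.649 CPM in IL-12 80%TCM and 0.571, 0.444 and 0.403 in IL-12 libraries, with 0.678, 0.627 and 1.04 in IL-2 80%TCM and 0.441, 0.322 and 0.577 in IL-2 libraries. Both TCM groups lay above their controls with no overlap, and replicate 1 of IL-12 80%TCM was the highest. The rise was called in IL-12, at 1.19 (SE 0.37) on the log2 scale (adjusted p = 0.0268), and not in IL-2, at 0.81 (SE 0.40, adjusted p = 0.204). The call was lost without IL-12 80%TCM replicate 1 or any IL-12 replicate, at adjusted p = 0.0519 to 0.181 in a range of 0.00504 to 0.181. Sesn2, an inhibitor of the growth kinase mTORC1, averaged 10.9 ± 0.240 CPM in IL-12 and 13.7 ± 0.522 in IL-2 libraries (SD, n = 3 each) and was lower, with a log2 fold change of -0.34 (SE 0.09, adjusted p = 0.00986; blocked fit 0.0643).

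Eif4ebp1 stood at 19.3, 19.3 and 16.2 CPM in IL-12 80%TCM, 13.02, 12.7 and 14.1 in IL-12, 14.8, 15.6 and 42.2 in IL-2 80%TCM and 12.3, 13.3 and 25.8 in IL-2 libraries. Replicate 3 was the highest of both IL-2 groups, and it was called in no comparison by the fit without the block. The blocked fit called it higher with TCM in both cytokines, at adjusted p = 0.000445 in IL-12 (against 0.367) and 0.00125 in IL-2 (against 0.384). Those log2 fold changes were 0.47 and 0.43 in the blocked fit.

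**Figure D3:**
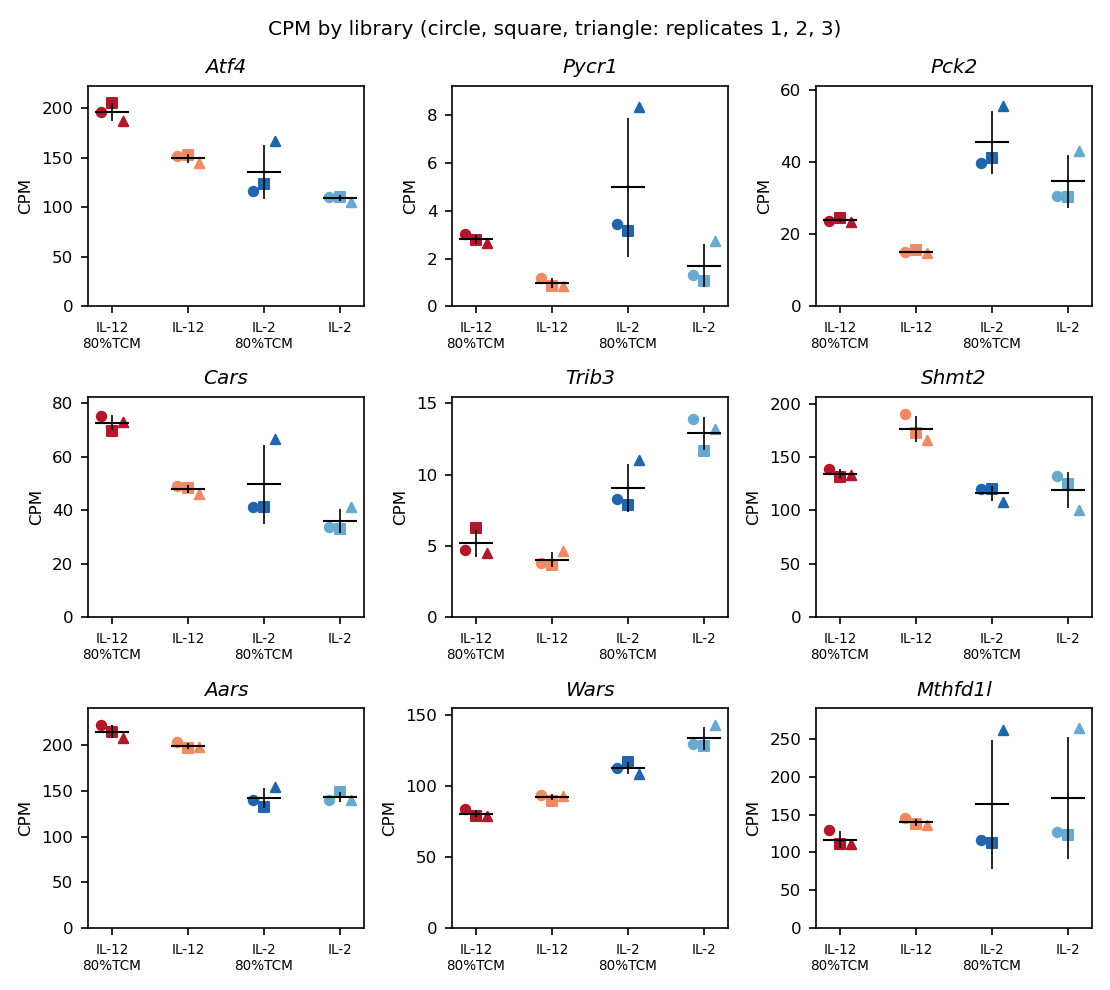
CPM per library for 9 members, with the groups on the horizontal axis, a symbol for each replicate, and the mean with SD over 3 libraries. Atf4 and Cars are highest in IL-12 80%TCM, Pck2 and Trib3 are lower in both IL-12 groups than in both IL-2 groups, and Mthfd1l is high in replicate 3 of both IL-2 groups alone.

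Among the serine and one-carbon enzymes, none rose with TCM. In IL-12 80%TCM against IL-12, 2 of the 7 tested were lower and 0 higher, with a median log2 fold change of -0.26, against 0.01 over all tested genes; in IL-2 80%TCM against IL-2, 0 were called and the median was -0.04, against 0.00. Of all tested genes, 14.2% were called lower with TCM in IL-12 and 7.82% with TCM in IL-2. The blocked fit called 5 of 7 lower with TCM in IL-12, against 19.9% of all tested genes. It called 1 of 7, Shmt1, lower in IL-2, against 14%. With the IL-2 replicates 3 left out the counts were also 5 and 1, against 22.9% and 12.4% of all tested genes. Shmt2, the mitochondrial enzyme that splits serine into glycine and a one-carbon unit, stood at 139, 131 and 133 CPM in IL-12 80%TCM, 190.1, 173 and 166 in IL-12, 119.8, 120.2 and 108 in IL-2 80%TCM and 133, 124 and 101 in IL-2 libraries. The 3 IL-12 libraries were the highest and overlapped with no other group. Shmt2 fell with TCM in IL-12 by a log2 fold change of -0.39 (SE 0.09, adjusted p = 0.00547). It was higher in IL-12 than in IL-2 by 0.56 (SE 0.09, adjusted p = 0.000209). The change with TCM in IL-2 was -0.04 (SE 0.09, adjusted p = 0.804), and the difference of the 2 effects was -0.35 (SE 0.13, adjusted p = 0.202; blocked fit 0.00402).

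Phgdh stood at 187, 173 and 168 CPM in IL-12 80%TCM, 237, 213 and 217 in IL-12, 248, 259 and 188 in IL-2 80%TCM and 262, 250.5 and 181 in IL-2 libraries. The IL-12 80%TCM libraries lay below every library of the IL-12 and IL-2 80%TCM groups, and replicate 3 was the lowest of both IL-2 groups. It was lower in IL-12 80%TCM than in IL-2 80%TCM, with a log2 fold change of -0.40 (SE 0.13, adjusted p = 0.0296), a call lost without replicate 1 or 2 of IL-2 80%TCM or any replicate of IL-12 80%TCM (0.0507 to 0.116 in a range of 6.24e-10 to 0.116). With TCM in IL-12 the change was -0.34 (SE 0.13, adjusted p = 0.0736; blocked fit 2.23e-05), and with TCM in IL-2 it was 0.01 (SE 0.13, adjusted p = 0.988). The blocked fit also called the difference of these effects (-0.35, adjusted p = 0.0036, against 0.429) and a lower level in IL-12 than in IL-2 (-0.20, adjusted p = 0.0152, against 0.743). Reads of a processed pseudogene, Phgdh-ps1, may not be fully separable from those of Phgdh.

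Psat1, the aminotransferase of the second step, stood at 126, 112 and 118 CPM in IL-12 80%TCM, 152, 128 and 130.1 in IL-12, 129.7, 126 and 129 in IL-2 80%TCM and 136, 135 and 125 in IL-2 libraries. The IL-12 80%TCM libraries lay below those of IL-12 with a log2 fold change of -0.21 (SE 0.07, adjusted p = 0.0387). That call was lost with upper-quartile scaling and without replicate 2 or 3 of IL-12 80%TCM or replicate 1 of IL-12 (0.0984 to 0.175 without these libraries, in a range of 0.0011 to 0.175). Psph, the phosphatase of the last step, stayed between 33.3 and 38.3 CPM over all 12 libraries and was called in no comparison.

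Shmt1, the cytosolic form, averaged 34.6 ± 0.866 CPM in IL-12 80%TCM, 44.9 ± 6.03 in IL-12, 33.9 ± 4.85 in IL-2 80%TCM and 43.2 ± 8.20 in IL-2 libraries (SD, n = 3 each). With TCM its changes were -0.38 (SE 0.14) in IL-12 (adjusted p = 0.0538) and -0.35 (SE 0.14) in IL-2 (adjusted p = 0.108), and the blocked fit called both lower (adjusted p = 0.000256 and 0.00154). Mthfd2, a mitochondrial folate enzyme that ATF4 is known to induce, stood at 93.7, 88.4 and 86.6 CPM in IL-12 80%TCM, 89.96, 88.05 and 81.8 in IL-12, 75.5, 78.1 and 91.04 in IL-2 80%TCM and 85.3, 76.02 and 70.2 in IL-2 libraries. These groups overlapped within each TCM comparison, and it was called in none of the 5 comparisons. Mthfd1l stood at 129, 111 and 111 CPM in IL-12 80%TCM, 145, 137 and 136 in IL-12, 117, 112 and 261 in IL-2 80%TCM and 127, 122 and 265 in IL-2 libraries, and replicate 3 of the IL-2 groups stood above all other libraries. It was not called in IL-12 against IL-2, at -0.30 (SE 0.31, adjusted p = 0.463), and with the IL-2 replicates 3 left out it was higher instead, at 0.15 (adjusted p = 0.0204, range 0.00128 to 0.672). With TCM in IL-12 it was lower in the blocked fit (-0.26, adjusted p = 0.000746, against 0.582).

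The other amino acid enzymes leaned higher with TCM. All 6 had a positive log2 fold change with TCM in IL-2 (median 0.37, 2 called higher) and 5 of 6 in IL-12 (median 0.30, 3 called higher); 0 were called lower in either, and the medians over all tested genes were 0.00 and 0.01. Of all tested genes, 6.73% were called higher with TCM in IL-2 and 14.8% with TCM in IL-12. The blocked fit called all 6 higher with TCM in IL-2 and 3 in IL-12, against 14% and 22.1% of all tested genes. With the IL-2 replicates 3 left out, 3 of 6 were called higher in IL-2 (median 0.24) and 4 of 6 in IL-12. The shares of all tested genes were then 12.3% and 23.1%. Pycr1, the last mitochondrial enzyme of proline synthesis, stood at 3.01, 2.77 and 2.65 CPM in IL-12 80%TCM, 1.21, 0.864 and 0.856 in IL-12, 3.44, 3.17 and 8.33 in IL-2 80%TCM and 1.32, 1.05 and 2.75 in IL-2 libraries. Both TCM groups lay above their controls with no overlap, and replicate 3 was the highest in both IL-2 groups. Pycr1 rose with TCM by 1.49 (SE 0.42) on the log2 scale in IL-12 (adjusted p = 0.0168) and by 1.55 (SE 0.39) in IL-2 (adjusted p = 0.0177), 2.82 and 2.94 times the level without TCM. The first call was lost without IL-12 replicate 2 (adjusted p = 0.0622, range 1.64e-08 to 0.0622), and the second without replicate 1 or 2 of IL-2 (0.0688 to 0.0708, range 1.6e-10 to 0.112). With the IL-2 replicates 3 left out the rise in IL-2 was 1.48 (adjusted p = 4.85e-05).

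Aldh18a1, the first enzyme of proline synthesis from glutamate, averaged 109 ± 4.61 CPM in IL-12 80%TCM, 83.4 ± 2.65 in IL-12, 81.3 ± 8.498 in IL-2 80%TCM and 70.3 ± 3.43 in IL-2 libraries (SD, n = 3 each). It rose with TCM in IL-12 by 0.39 (SE 0.07, adjusted p = 0.00152), and the change in IL-2 was 0.21 (SE 0.07, adjusted p = 0.0684; blocked fit 0.0175). It was also higher in IL-12 than in IL-2, by 0.25 (SE 0.07, adjusted p = 0.0133), a call lost with upper-quartile scaling and without IL-12 replicate 1 (0.0514, range 0.00237 to 0.0737), and by 0.43 (SE 0.07) with TCM in both groups (adjusted p = 0.000385). Asns, asparagine synthetase and a classical ATF4 target, stood at 22.5, 21.8 and 22.03 CPM in IL-12 80%TCM, 21.5, 18.8 and 16.96 in IL-12, 20.3, 20.4 and 36.2 in IL-2 80%TCM and 19.9, 18.8 and 22.1 in IL-2 libraries. Replicate 3 of IL-2 80%TCM stood above all others, the IL-12 80%TCM libraries lay just above those of IL-12, and none of the 5 comparisons called it without the block. The blocked fit called it higher with TCM in IL-2 (adjusted p = 0.0297, against 0.244), while with the IL-2 replicates 3 left out the change was 0.07 (adjusted p = 0.633).

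Pck2, the mitochondrial PEP carboxykinase, carried a TCM and a cytokine effect of opposite sign in IL-12 cells. It stood at 23.8, 24.6 and 23.4 CPM in IL-12 80%TCM, 15.1, 15.5 and 14.9 in IL-12, 39.8, 41.3 and 55.7 in IL-2 80%TCM and 30.7, 30.4 and 43.2 in IL-2 libraries. No IL-12 or IL-12 80%TCM library reached the lowest IL-2 library, and within IL-2 replicate 3 of the plain group lay among the TCM libraries. Pck2 rose with TCM in IL-12 by 0.66 (SE 0.15, adjusted p = 0.00478). The change in IL-2 was 0.39 (SE 0.14, adjusted p = 0.0738), and the blocked fit called it (1.74e-05). It was lower in IL-12 than in IL-2, with a log2 fold change of -1.19 (SE 0.14, adjusted p = 2.13e-05), and had a log2 fold change of -0.93 (SE 0.14) with TCM in both groups (adjusted p = 0.000172).

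Got1, the cytosolic aspartate aminotransferase, averaged 67.04 ± 3.98 CPM in IL-12 80%TCM, 62.1 ± 1.33 in IL-12, 63.1 ± 2.34 in IL-2 80%TCM and 50.8 ± 3.76 in IL-2 libraries (SD, n = 3 each). It rose with TCM in IL-2 by 0.31 (SE 0.06, adjusted p = 0.00633) and was higher in IL-12 than in IL-2 by 0.29 (SE 0.06, adjusted p = 0.00235), so the IL-2 group was the lowest of the 4. The call with TCM in IL-2 was lost with the IL-2 groups fitted alone (0.0664, range 0.000359 to 0.0664). With TCM in IL-12 the change was 0.11 (SE 0.06, adjusted p = 0.216). Gpt2, the mitochondrial alanine aminotransferase, stood at 6.05, 5.63 and 5.89 CPM in IL-12 and 1.94, 1.89 and 3.06 in IL-2 libraries, with no overlap, and rose by 1.35 (SE 0.34) on the log2 scale (adjusted p = 0.00616). In the TCM groups it stood at 5.70, 5.18 and 5.89 CPM in IL-12 80%TCM and 2.62, 1.99 and 6.66 in IL-2 80%TCM libraries, where replicate 3 was above all IL-12 80%TCM libraries. That comparison was called in the blocked fit (adjusted p = 0.000607, against 0.2), as was the change with TCM in IL-2 (0.0094, against 0.209), which was 0.24 with the IL-2 replicates 3 left out (adjusted p = 0.445).

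**Figure D4:**
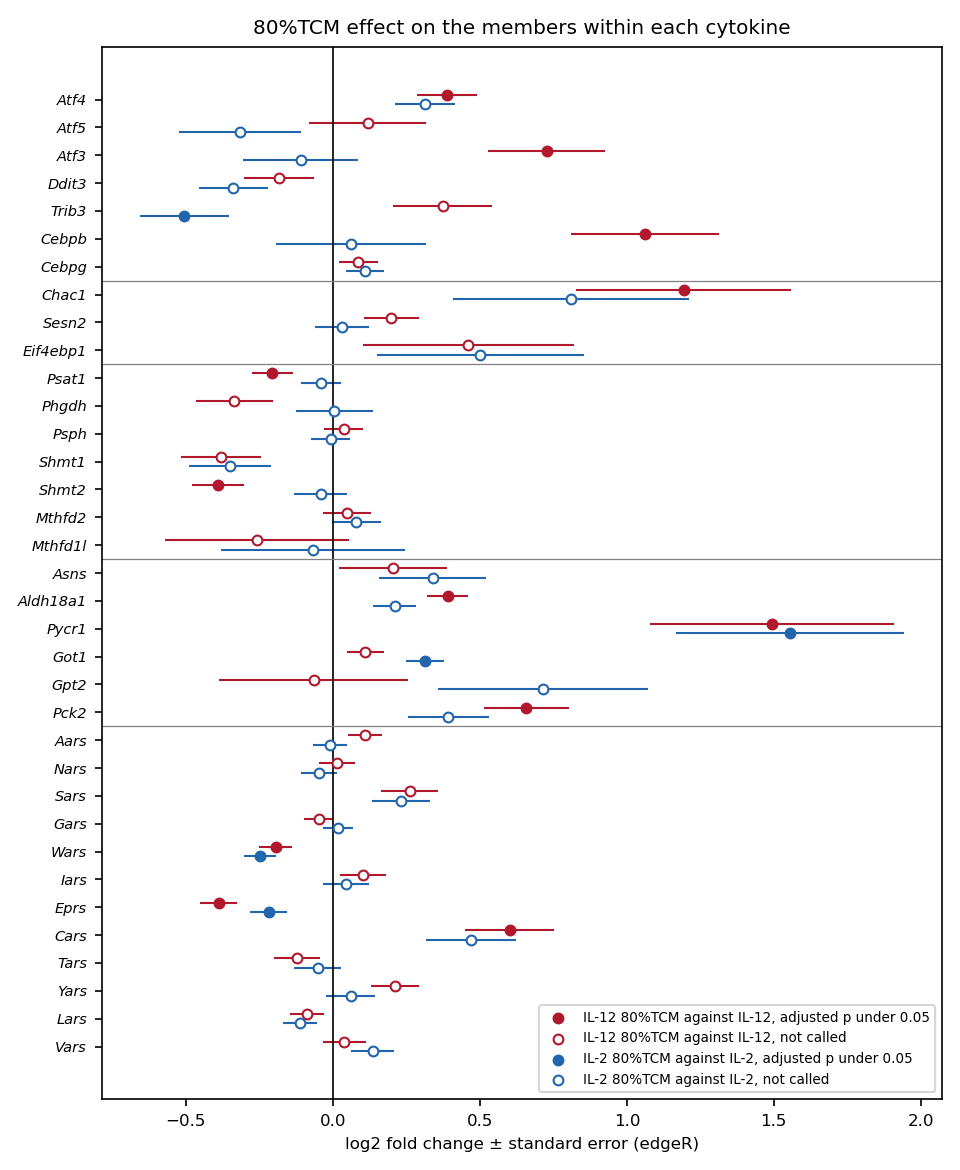
Log2 fold change with standard error for TCM within IL-12 (red, above) and within IL-2 (blue, below) for each of the 35 tested members in order of role, filled where the adjusted p is under 0.05. Pycr1 lies farthest to the right in both cytokines, and most serine and one-carbon genes lie left of 0 in IL-12.

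Most tRNA synthetases were higher with IL-12 than with IL-2, in either medium. In IL-12 against IL-2, 9 of 12 were higher and 1 lower, with a median log2 fold change of 0.30, against -0.01 over all genes. In IL-12 80%TCM against IL-2 80%TCM, 8 of 12 were higher and 1 lower, with a median of 0.31, against -0.01. The shares of all tested genes were 22.1% higher and 23% lower without TCM, and 19.5% and 19.4% with TCM in both groups. The 9 higher without TCM were Aars (alanine), Nars (asparagine), Gars (glycine), Iars (isoleucine), Eprs (glutamate and proline), Cars (cysteine), Tars (threonine), Yars (tyrosine) and Lars (leucine), with log2 fold changes from 0.24 for Iars to 0.48 for Gars. With TCM in both groups they ranged from 0.29 for Tars to 0.60 for Aars, and Eprs was not called (0.12 (SE 0.06), adjusted p = 0.139). Sars (serine) and Vars (valine) were called in neither. Aars stood at 222, 215 and 207 CPM in IL-12 80%TCM, 203, 197 and 197 in IL-12, 140.2, 132 and 154 in IL-2 80%TCM and 140.1, 149 and 140.1 in IL-2 libraries. Each IL-12 library lay above each IL-2 library of either medium, and 14.3% of the exon length of Aars overlaps Exosc6 on the same strand. The change in Aars was 0.48 (SE 0.06, adjusted p = 2.45e-05) without TCM and 0.60 (SE 0.06, adjusted p = 2.96e-06) with it.

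Some of these calls are close to the threshold. In IL-12 against IL-2, upper-quartile scaling lost the calls of Iars, Cars and Yars. The call of Iars was also lost without replicate 1 of IL-12 or of IL-2 (0.0529 to 0.0837, range 0.000237 to 0.106), and that of Cars without any replicate of IL-12 or replicate 1 or 2 of IL-2 (0.0553 to 0.102, range 1.14e-08 to 0.102). In IL-12 80%TCM against IL-2 80%TCM, the call of Tars was lost without replicate 3 of IL-2 80%TCM or replicate 1 or 2 of IL-12 80%TCM (0.054 to 0.0597, range 0.00113 to 0.0597).

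Wars, the tryptophan synthetase and known as an interferon-induced gene, ran against the others. It stood at 83.7, 79.3 and 78.98 CPM in IL-12 80%TCM, 93.9, 89.7 and 93.2 in IL-12, 112, 117 and 108 in IL-2 80%TCM and 129.9, 128 and 143 in IL-2 libraries. Its level was higher from each of these groups to the next, with no overlap between neighbours. Wars was lower in IL-12 than in IL-2, with a log2 fold change of -0.54 (SE 0.06, adjusted p = 5.55e-06), and had a log2 fold change of -0.48 (SE 0.06) with TCM in both groups (adjusted p = 1.57e-05). It also fell with TCM, with a log2 fold change of -0.20 (SE 0.06) in IL-12 (adjusted p = 0.0194) and -0.25 (SE 0.06) in IL-2 (adjusted p = 0.00983). The call with TCM in IL-12 was lost without IL-12 80%TCM replicate 3 (0.0533, range 0.000264 to 0.0533), and that in IL-2 with the IL-2 groups fitted alone (0.0793, range 0.000849 to 0.0793).

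With TCM, Eprs fell in both cytokines and Cars rose in IL-12. Eprs, the bifunctional synthetase, stood at 218, 196 and 193 CPM in IL-12 80%TCM, 281, 252 and 260.1 in IL-12, 188, 175 and 193 in IL-2 80%TCM and 223, 216 and 208 in IL-2 libraries. It fell with TCM in IL-12, with a log2 fold change of -0.39 (SE 0.06, adjusted p = 0.000678), and in IL-2, with a log2 fold change of -0.22 (SE 0.06, adjusted p = 0.0341), with no overlap in either. The call in IL-2 was lost without replicate 1 or 2 of either IL-2 group, replicate 2 or 3 of IL-12 80%TCM or replicate 3 of IL-12 (0.0528 to 0.152, range 0.000957 to 0.152). Cars stood at 75.2, 69.7 and 72.99 CPM in IL-12 80%TCM, 49.2, 48.2 and 46.2 in IL-12, 41.2, 41.02 and 66.7 in IL-2 80%TCM and 33.6, 32.9 and 41.02 in IL-2 libraries. Replicate 3 was the highest of both IL-2 groups. Cars rose with TCM in IL-12 by 0.60 (SE 0.15, adjusted p = 0.0097), and the change in IL-2 was 0.47 (SE 0.15, adjusted p = 0.0559; blocked fit 3.65e-05). The blocked fit further called Sars higher with TCM in both cytokines (adjusted p = 0.00128 in IL-12 and 0.00994 in IL-2), Yars higher and Tars lower with TCM in IL-12 (0.0101 and 0.0323), and Vars higher with TCM in IL-2 (0.0324). Those 5 had adjusted p of 0.0625, 0.137, 0.0654, 0.266 and 0.257 without the block.

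**Figure D5:**
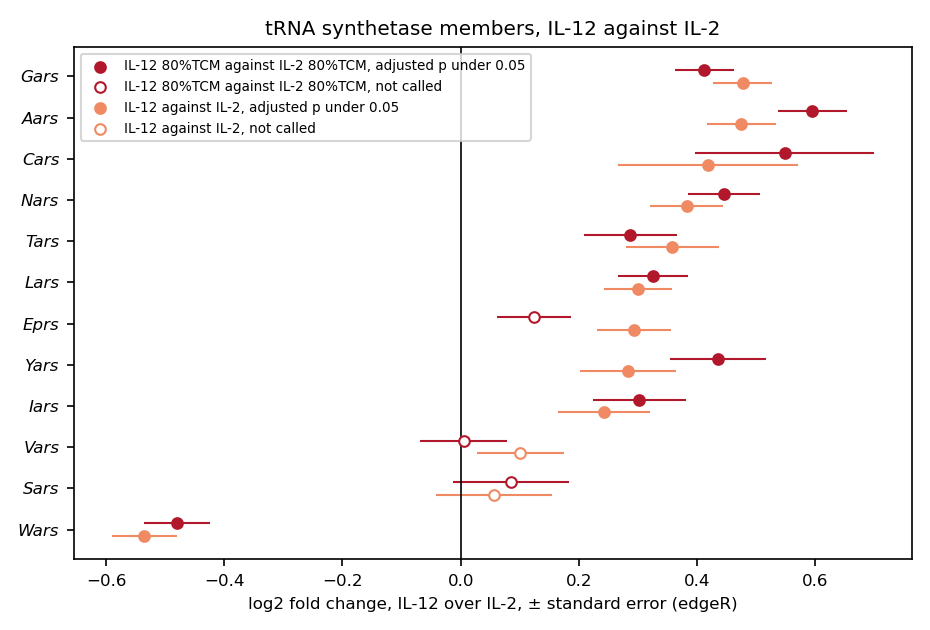
Log2 fold change of IL-12 over IL-2 with standard error for the 12 synthetases, with TCM in both groups (dark red, above) and without TCM (orange, below), filled where the adjusted p is under 0.05. Of the synthetases, 9 lie to the right of 0 and are called without TCM, Vars and Sars lie near 0, and Wars lies to the left at -0.48 with TCM and -0.54 without.

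Levels of different genes can be set side by side only per length of exon. On that scale, in CPM per kb over group means, Phgdh reached 70.9 in IL-12 80%TCM, 89.3 in IL-12, 93.3 in IL-2 80%TCM and 93.0 in IL-2 cells, and Vars lay at 88.3, 85.9, 88.0 and 80.1 in the same groups. Atf4 lay at 83.1, 63.5, 57.5 and 46.3 CPM per kb. Psat1 lay between 27.9 and 32.1, and Psph between 7.9 and 8.32. Pycr1, with the largest TCM effect, was among the lowest tested members at 0.714, 0.248, 1.27 and 0.434 CPM per kb.

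Further genes of the same pathways were read from lists chosen by name with earlier results of these data known, and are described by their counts and medians beside those of all genes given above. Of 16 core genes of the integrated stress response (eIF2alpha kinases, eIF2, eIF2B and the phosphatase), 3 were higher and 3 lower with TCM in IL-12 (median log2 fold change -0.10), 1 higher and 0 lower with TCM in IL-2 (-0.02), and 8 higher and 2 lower in IL-12 against IL-2 (0.25). With the IL-2 replicates 3 left out, 4 were higher and 7 lower with TCM in IL-12. Ppp1r15a, the GADD34 subunit that restores eIF2alpha, rose with TCM in IL-12 by 0.41 (SE 0.07, adjusted p = 0.00131), and Eif2b1, a subunit of eIF2B, fell by a log2 fold change of -0.27 (SE 0.06, adjusted p = 0.00346). Eif2s2, the beta subunit of eIF2, rose with TCM in IL-2 by 0.26 (SE 0.06, adjusted p = 0.00861). In IL-12 against IL-2, Eif2s1, which encodes eIF2alpha, was higher by 0.54 (SE 0.06, adjusted p = 1.71e-05), and Eif2ak2, the kinase PKR, was lower, with a log2 fold change of -0.62 (SE 0.07, adjusted p = 1.04e-05).

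Of 23 tested ATF4 targets outside the members, 2 were higher and 3 lower with TCM in IL-12 (median 0.04), 0 higher and 1 lower with TCM in IL-2 (0.06), and 7 higher and 2 lower in IL-12 against IL-2 (0.06). These counts moved with how the IL-2 libraries were fitted: the blocked fit gave 8 higher and 3 lower with TCM in IL-12, 4 and 1 with TCM in IL-2, and 9 and 2 in IL-12 against IL-2. With the IL-2 replicates 3 left out they were 7 and 5, 2 and 4, and 10 and 4 in the same order. Slc1a4, a transporter of neutral amino acids, rose with TCM in IL-12 by 1.05 (SE 0.27, adjusted p = 0.012), and Hspa9, the mitochondrial chaperone mortalin, fell with TCM, with a log2 fold change of -0.42 (SE 0.06) in IL-12 (adjusted p = 0.000389) and -0.21 (SE 0.06) in IL-2 (adjusted p = 0.0422). Slc38a2, a transporter of glutamine and alanine, was higher by 0.83 (SE 0.05) in IL-12 against IL-2 (adjusted p = 1.06e-08). Jdp2, a repressor of the AP-1 family, was lower there, with a log2 fold change of -1.47 (SE 0.16, adjusted p = 1.22e-05).

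The 11 other cytosolic synthetase and scaffold genes also leaned to IL-12: 8 were higher and 0 lower in IL-12 against IL-2 (median 0.32), 6 and 0 with TCM in both groups (0.16), and 0 higher and 5 lower with TCM in IL-12 (-0.19). Aimp2, a scaffold protein of the synthetase complex, was higher by 0.84 (SE 0.09) in IL-12 against IL-2 (adjusted p = 8.4e-06). Kars1, the lysine synthetase, fell with TCM in both cytokines. Its log2 fold change was -0.24 (SE 0.05) in IL-2 (adjusted p = 0.00712) and -0.24 (SE 0.05) in IL-12 (adjusted p = 0.00353). Hars1, the histidine synthetase, also fell with TCM in both. Its log2 fold change was -0.31 (SE 0.06) in IL-12 (adjusted p = 0.0015) and -0.2 (SE 0.06) in IL-2 (adjusted p = 0.0317). Of 20 mitochondrial genes for loading tRNAs, the synthetases and the amidotransferase subunits Qrsl1, Gatb and Gatc, 4 were higher and 2 lower in IL-12 against IL-2 (0.04). With TCM in IL-12, 0 were higher and 5 lower (-0.08), Gatb among them, or 1 and 8 with the IL-2 replicates 3 left out. Lars2, the mitochondrial leucine synthetase, led in both, higher by 0.57 (SE 0.09, adjusted p = 0.000252) in IL-12 against IL-2 and lower, with a log2 fold change of -0.72 (SE 0.09, adjusted p = 0.000152) with TCM in IL-12.

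Of 20 tested one-carbon, glycine and folate genes outside the members, 3 were higher and 7 lower with TCM in IL-12 (median -0.10) and 2 higher and 2 lower with TCM in IL-2 (-0.03), where the blocked fit gave 2 and 5, and 2 and 7 of 21 were called with the IL-2 replicates 3 left out. Tyms, thymidylate synthase, fell with TCM in both, with a log2 fold change of -1.07 (SE 0.16) in IL-12 (adjusted p = 0.000459) and -0.77 (SE 0.16) in IL-2 (adjusted p = 0.00762). Srr, serine racemase, rose with TCM in IL-2 by 0.63 (SE 0.12, adjusted p = 0.00359). Gcsh, of the glycine cleavage system, was higher by 0.73 (SE 0.12) in IL-12 against IL-2 (adjusted p = 0.000268).

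Of 13 tested proline, glutamate and aspartate genes outside the members, 0 were higher and 4 lower with TCM in IL-12 (median -0.12) and 2 higher and 4 lower with TCM in IL-2 (0.05). With TCM in IL-12 the blocked fit gave 3 higher and 5 lower, and 3 and 8 were called with the IL-2 replicates 3 left out. Oat, ornithine aminotransferase, and Ass1, argininosuccinate synthetase, each fell with TCM in both cytokines. The log2 fold change of Oat was -0.47 (SE 0.06) in IL-12 (adjusted p = 0.00013) and -0.22 (SE 0.06) in IL-2 (adjusted p = 0.0267). That of Ass1 was -0.80 (SE 0.12) in IL-12 (adjusted p = 0.000336) and -0.59 (SE 0.11) in IL-2 (adjusted p = 0.0045). Of 20 endoplasmic reticulum stress genes of the IRE1 and ATF6 branches, 14 were higher and 0 lower in IL-12 against IL-2 (0.27), and 2 higher and 7 lower with TCM in IL-12 (-0.14), or 3 and 11 in the blocked fit and 3 and 14 with the IL-2 replicates 3 left out. Ern1, which encodes the sensor IRE1, was higher by 1.48 (SE 0.10) in IL-12 against IL-2 (adjusted p = 5.78e-08), and Xbp1, the factor it splices, rose with TCM by 0.58 (SE 0.08) in IL-12 (adjusted p = 0.000167) and 0.33 (SE 0.08) in IL-2 (adjusted p = 0.0137). Of the 19 hypoxia and glycolysis genes, 0 were called with TCM in either cytokine by the fit without the block (at medians of 0.38 in IL-12 and 0.10 in IL-2), and the blocked fit called 15 higher in IL-12 and 8 higher in IL-2. With the IL-2 replicates 3 left out, 16 were higher in IL-12, and 6 were higher and 1 lower in IL-2.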

How the data were processed

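RNA-seq of 12 libraries, 3 in each of 4 groups taken from the labels, was analysed from 2 deposited tables. The authors deposited counts of reads per gene, and a second table whose values are a signal: in each library they are the counts divided by 1 constant (relative spread 2.35e-14), at 0.97524 to 1.0139 times the CPM computed here. Per the submitters' processing notes, STAR 2.7.7a and edgeR were used and the build named is GRCh38, while the identifiers are mouse Ensembl ones; the counter, strand setting and annotation are not given in the sources used here. Per the labels' protocols the kit was a directional NEBNext Ultra II kit, and their extraction text speaks of livers of bortezomib-treated mice. Of the 55487 identifiers, 55141 have a symbol, and the other 346 hold 0.0294 to 0.0526% of the counts; 0 columns were left without a sample.

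The counts were tested with edgeR 4.0.16 in R 4.3.3: TMM scaling, a low-count filter (minimum count 10, minimum total 15), 1 mean per group over all 12 libraries and a quasi-likelihood test with Benjamini-Hochberg adjustment over 15897 genes, called at 0.05. The common biological coefficient of variation was 0.104. Alternatives were DESeq2 1.42.0, limma 3.58.1 on log2(CPM + 1) and log2(CPM + 0.1), other scalings and filters, the 2 compared groups alone, replicate blocks and leaving out libraries. The members and lists were chosen with earlier results of these data known. Every member is named, and from each further list the called gene with the smallest p in each direction and comparison could be named. Some genes of these lists are counted in their list and not reported here by name. The labels give the groups the same replicate numbers. Residuals of same-numbered IL-2 80%TCM and IL-2 libraries correlated at 0.28, 0.245 and 0.57, all above 0.1, and the blocked fit took these numbers as pairs. Replicates 1 and 2 correlated as well across numbers (0.271 and 0.3). The residuals are from the mean of 3 libraries, so a replicate 3 that stands apart in both groups moves replicates 1 and 2 together. The correlations therefore cannot show whether replicates 1 and 2 are paired, and calls made only in the blocked fit rest on that assumption. Same-numbered libraries of other groups correlated at -0.044 to 0.072 and were not taken as paired. Exon lengths, overlaps and coordinates are from GENCODE M21 and RefSeq on GRCm38.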

Additional observations from a re-analysis of the deposited data

Results flagged for a closer look

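The effect of TCM differed between the cytokines for a gene of the further lists, by the interaction test in edgeR's quasi-likelihood fit with Benjamini-Hochberg adjustment over all genes. Lars2, the mitochondrial leucine synthetase, averaged 69.5 CPM in IL-12 80%TCM and 114 CPM in IL-12 libraries, and 77.0 CPM in IL-2 80%TCM and 76.7 CPM in IL-2 libraries. The difference of the TCM effects, IL-12 minus IL-2, was -0.72 on the log2 scale (SE 0.13, adjusted p = 0.0146).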

How the results depend on the processing

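Of the called members, 0 of 5 for TCM in IL-2, 6 of 12 for TCM in IL-12, 14 of 20 for IL-12 against IL-2 and 12 of 14 for IL-12 80%TCM against IL-2 80%TCM lost their call in no alternative in which they were tested; Cebpb and Gpt2, among these, were not tested in 1 of the 23. The share of all genes called moved too: for TCM in IL-2, TCM in IL-12, IL-12 against IL-2 and the same with TCM in both groups it was 14.5, 29, 45.1 and 39% as reported, 8.8, 14.9, 22.7 and 19.5% with no filter on low counts, 19.8, 38.2, 51.9 and 46.1% with a minimum of 5 CPM, 15.9, 28.7, 43.6 and 37.6% with DESeq2, 14.7, 29, 44.8 and 39.6% with upper-quartile scaling, 3.81, 48.9, 46.9 and 34.8% with the 2 groups alone, 24.7, 46, 52.3 and 48% with both IL-2 replicates 3 left out and 6.24, 12.1, 23.4 and 20.7% with a floor of 0.5 on the log2 fold change. For TCM in IL-2 (2 higher, 3 lower), the higher count was 5 with upper-quartile scaling, 6 with DESeq2, 10 with no filter on low counts, 0 with the 2 groups alone, 4 with both IL-2 replicates 3 left out and 1 with a floor of 0.5 on the log2 fold change. The lower count was 5 with no filter, 0 with the 2 groups alone, 6 without replicate 3 and 1 with the floor. For TCM in IL-12 (8 and 4), the higher count was 4 with a minimum of 5 CPM, 14 with the 2 groups alone and 13 without replicate 3. The minimum of 5 CPM applies to the mean over all libraries. Atf3, Cebpb, Chac1 and Pycr1 average less, so these higher members were not tested with it. The lower count was 7 with no filter, 8 with the 2 groups alone, 8 without replicate 3 and 0 with the floor. For IL-12 against IL-2 (14 and 6), the higher count was 2 with the floor and the lower count 10 with no filter. With TCM in both groups (10 and 4), the higher count was 18 without replicate 3 and 3 with the floor, and the lower count 7 with no filter and 2 with the floor. For the difference of the TCM effects (0 and 0), no filter gave 2 and 2 (2.41% of all genes called), DESeq2 1 higher (3.46%), and leaving out replicate 3 gave 7 and 2 (13.2%). Without replicate 3 of both IL-2 groups, Mthfd1l reversed to 0.15 in IL-12 against IL-2 (adjusted p = 0.0204 by edgeR) and Eif4ebp1 to 0.24 in IL-12 80%TCM against IL-2 80%TCM (adjusted p = 0.0298 by edgeR). Leaving out 1 library at a time, these ranged from -0.47 to 0.16 for Mthfd1l and from -0.67 to 0.25 for Eif4ebp1, above 0 without IL-2 replicate 3 and IL-2 80%TCM replicate 3. The cause was not tested.

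With the replicate number as a block over all 12 libraries, 4 members were higher in IL-2 cells given TCM, with 17.1% of all genes called. With the numbers assumed to pair the IL-2 samples, a block limited to the 6 IL-2 libraries gave 11 higher and 5 lower for TCM in IL-2. It gave 8 lower for TCM in IL-12, and 2 higher and 2 lower for the difference. The shares of all genes called were 27.9, 42 and 10.5%.

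Leaving out 1 library at a time gave 1 to 7 higher and 1 to 5 lower for TCM in IL-2, 5 to 10 and 2 to 6 for TCM in IL-12, 11 to 14 and 5 to 8 for IL-12 against IL-2, 9 to 13 and 3 to 5 with TCM in both groups, and 0 to 3 and 0 to 0 for the difference. Over the same libraries left out, 7.95 to 18.1, 18 to 35.2, 34.3 to 50.3, 30.1 to 41.5 and 0.642 to 7.19% of all genes were called, in the same order. Upper-quartile scaling gave 1246 genes higher and 1087 lower for TCM in IL-2, against 1070 and 1243 with TMM. Depth limits Nupr1 and Aldh1l2, which were too low to test.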
